A study of Mus musculus with 9 samples.

Results

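The number of intact Pfn3 alleles falls from 2 in Pfn3+/+ (WT) testes to 1 in Pfn3+/- (Het) testes and 0 in Pfn3-/- (KO) testes, and the transcripts of the testis were examined for levels that follow this order. All 9 samples of the series entered, 3 of each genotype. Of the 38674 genes of the deposited table, 25173 had a value above 0 in at least 1 sample, and the 14865 genes with a value of at least 10 in 3 or more samples were tested. Of these, 12710 were protein coding (85.5%).

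The samples were testes of male C57BL/6 mice, freed of the tunica albuginea and sequenced as QuantSeq libraries, in which a read marks the 3′ end of a polyadenylated transcript. WT carried both intact alleles, Het carried 1 intact and 1 edited allele, and KO carried 2 edited alleles. The edited alleles came from CRISPR/Cas9 injection of zygotes and are deletions within the single exon of Pfn3, present in every cell of the animal. The study worked with sexually mature males a few months old, with no age given for each sample. Several deletion lines were established, and which of them gave these samples and whether the 3 samples of a genotype came from separate litters are not given in the sources used here, so p-values measure the spread between these samples.

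Profilins bind actin monomers and feed them into growing filaments, and Pfn3 is a profilin of male germ cells. Spermatids, the haploid cells that follow meiosis, build an acrosome, a manchette and a flagellum and replace the histones of their nuclei, first with transition proteins and then with protamines. Transcription stops as the nucleus condenses, so many of these proteins are made from messages stored at the round spermatid stage.

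The trend of a gene is the change in log2(normalized count + 1) per Pfn3 allele lost, from a limma fit over all 9 samples, and the fitted difference between KO and WT is 2 times that value on the log2 scale. A linear trend can also arise where Het equals one of the homozygotes, so the departure of Het, its level minus the mean of the WT and KO levels, was tested beside it. No gene passed the trend test after Benjamini-Hochberg adjustment in limma (0 of 14865), where the lowest adjusted p was 0.486. At an unadjusted p under 0.05 there were 1455 genes (9.79%), 866 lower with each allele lost (5.83%) and 589 higher (3.96%). An unadjusted p under 0.01 was reached by 270 genes (1.82%), and 5 genes (0.0336%) passed an F test over the 3 genotypes at an adjusted p under 0.05. On the recovered reads edgeR likewise called 0 genes (lowest adjusted p 0.257, 1375 genes at an unadjusted p under 0.05), while DESeq2 called 57 of 12713 genes with an adjusted p (0.448%), 40 lower and 17 higher. The trends and unadjusted p-values below are those of limma, and the genes are described by their values. A DESeq2 adjusted p is printed for some genes only, and its absence does not mean that a gene passed. With the authors' size factors 59.5% of the 1455 genes were lower with each allele lost, and with values scaled by the reads counted per library 23.2% of the genes at that threshold were. That scaling moved the median trend of all genes from 0.011 to 0.11.

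The samples held between 3375546 and 4287335 reads assigned to genes (median 4092736), and 3 reads, taken as the detection limit for counting error, corresponded to 2.58 to 3.71 normalized counts. In a principal component analysis WT replicate 1 stood apart on the first component (30.6% of the variance) and Het replicate 1 on the second (21.4%). With both of these samples left out, 1678 genes had an unadjusted p under 0.05, of which 941 were among the 1455. Of the genes tested, 2831 (19%) differed by more than 8-fold between samples of the same genotype.

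Pfn3 itself (ENSMUSG00000044444, chromosome 13 of GRCm38 from 55414688 to 55415232, minus strand) was present in WT at 592, 383 and 373 normalized counts, in Het at 136, 339 and 326 and in KO at 74.7, 215 and 279. The WT samples lay above all others, whereas Het and KO overlapped, since Het replicate 1 was below KO replicates 2 and 3. Its trend was −0.70 (SE 0.26, unadjusted p = 0.0218), and an exact two-sided permutation test of the slope over all assignments of the 9 samples gave p = 0.0357, where the smallest possible value is 0.00119. Without WT replicate 1 the trend was −0.59 (unadjusted p = 0.0697) and without KO replicate 1 it was −0.45 (unadjusted p = 0.0754). The KO samples still carried Pfn3 reads. Where these 3′ tags lie relative to the deletions was not analysed here, so the level of Pfn3 was not taken as a check of the genotype labels. Pfn3 also lies within Slc34a1 on the other strand.

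**Figure D1:**
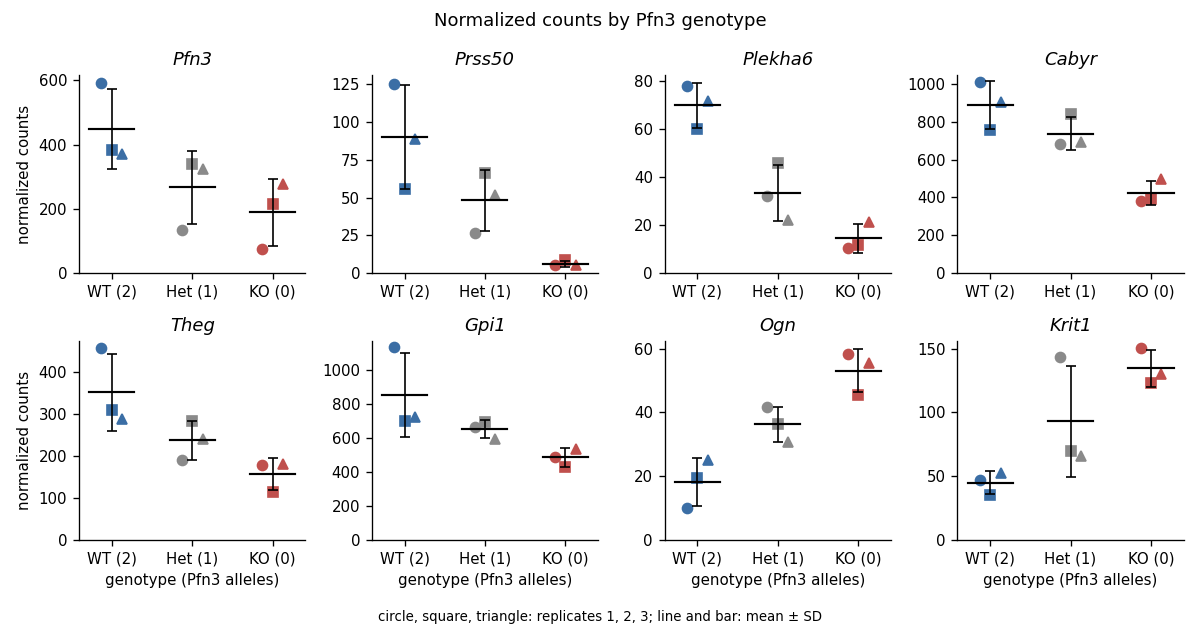
Normalized counts (vertical axes, from 0) of Pfn3 and 7 genes named below in WT, Het and KO testes, with the number of Pfn3 alleles in brackets, where symbols are the samples and lines and bars are mean ± SD (n = 3). Prss50, Plekha6, Cabyr, Theg and Gpi1 are lower and Ogn and Krit1 higher in KO than in WT, with no overlap, and in Plekha6, Theg, Gpi1 and Ogn the Het samples lie between both homozygotes.

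Among the protein-coding genes with lower levels at each allele lost, the lowest unadjusted p-values were those of Prss50 and Plekha6. Prss50 (ENSMUSG00000048752, chromosome 9 from 110857967 to 110864629), a testis protein of the serine protease family, had 125, 56.0 and 88.8 normalized counts in WT, 26.5, 66.1 and 51.9 in Het and 5.15, 8.71 and 5.36 in KO. KO stood below every other sample, and Het replicate 2 lay within the WT range. The trend was −1.79 (SE 0.26, unadjusted p = 6.9e-05, DESeq2 adjusted p = 0.000207), a fitted 11.9-fold difference between KO and WT.

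Plekha6 (ENSMUSG00000041757, chromosome 1 from 133164210 to 133303435), which encodes a pleckstrin homology domain protein, had 78.0, 59.8 and 71.4 normalized counts in WT, 32.1, 45.6 and 22.2 in Het and 10.3, 11.6 and 21.4 in KO. All 9 samples stood in the order of the alleles, with Het at 0.48 of the way from WT to KO on the log2 scale. The trend was −1.13 (SE 0.17, unadjusted p = 8.65e-05, DESeq2 adjusted p = 0.000274). The annotated gene Gm19461 overlaps Plekha6, and counted together they gave a trend of −0.86.

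Cabyr, a calcium-binding protein of the fibrous sheath of the sperm tail, had 1008, 757 and 903 normalized counts in WT, 681, 839.9 and 691 in Het and 380.5, 389.9 and 496 in KO. Its KO samples were below both other genotypes, and Het overlapped WT. The trend was −0.54 (SE 0.10, unadjusted p = 0.000434, DESeq2 adjusted p = 0.00742). Theg, a spermatid protein, had 457, 309.7 and 288 normalized counts in WT, 189, 282 and 239 in Het and 177, 113 and 179.6 in KO. Here the 9 samples stood in full order, and the trend was −0.58 (SE 0.13, unadjusted p = 0.00151, DESeq2 adjusted p = 0.0282).

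Lipe, the hormone-sensitive lipase, had 428, 270.1 and 317 normalized counts in WT, 225, 285 and 301 in Het and 81.6, 53.2 and 129 in KO. Its Het samples lay in or near the WT range, at 0.15 of the way from WT to KO on average, and the trend was −0.999 (SE 0.20, unadjusted p = 0.00079, DESeq2 adjusted p = 0.0126).

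In 57 of the 14865 genes (0.383%) the 9 samples stood in full genotype order, 25 downwards (0.168%) and 32 upwards (0.215%), with 16 and 18 of them protein coding. These shares are a description, with no test. The downward set held 2 enzymes of glycolysis, Gpi1 and Aldoa, several genes of spermatids (Theg, Gsg1, Dnajb3 and Fam170b), the nucleolar protein gene Knop1 and Atp1b3, a subunit of the sodium pump. Gpi1, glucose phosphate isomerase, had 1137, 699 and 725 normalized counts in WT, 664, 697 and 592 in Het and 489.6, 429 and 537 in KO, a trend of −0.39 (SE 0.10, unadjusted p = 0.00373), unchanged at 2 decimals when the overlapping Gm26762 was added. Its highest Het sample and its lowest WT sample were nearly equal. Aldoa, an aldolase, had 1714, 1060.2 and 1086 normalized counts in WT, 972, 965 and 944 in Het and 798, 865 and 839 in KO, a trend of −0.29 (SE 0.095, unadjusted p = 0.012), or −0.18 without WT replicate 1. The DESeq2 adjusted p-values were 0.0805 for Gpi1 and 0.211 for Aldoa.

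Gsg1, germ cell-specific gene 1, had 25915, 13049 and 12090 normalized counts in WT, 10341, 11999 and 11597 in Het and 8901, 6811 and 10064 in KO. WT replicate 1 carried about the level of a pair of other WT samples together, and the 8 remaining samples kept the order. The same sample was the highest of the 9 in Gpi1, Aldoa, Theg and Knop1. Ppm1l and Chac1 were also in order, although 1 KO sample was far below the others in each. Ppm1l had 110.2, 86.8 and 93.7 normalized counts in WT, 83.1, 78.2 and 86.8 in Het and 1.72, 70.6 and 70.6 in KO.

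Levels that were higher with each allele lost are given next. Ogn (ENSMUSG00000021390, chromosome 13 from 49608046 to 49624501), osteoglycin, a small proteoglycan of extracellular matrix, had 9.90, 19.3 and 25.1 normalized counts in WT, 41.6, 36.3 and 30.7 in Het and 58.4, 45.5 and 55.4 in KO. The 3 genotypes did not overlap, and the trend was 0.79 (SE 0.17, unadjusted p = 0.00107, DESeq2 adjusted p = 0.0198), or 0.66 when counted together with the overlapping Cenpp. Krit1, a scaffold protein of endothelial junctions, had 47.0, 34.7 and 52.1 normalized counts in WT, 144, 69.8 and 65.6 in Het and 150.3, 123 and 130.5 in KO. Its trend was 0.79 (SE 0.16, unadjusted p = 0.00064, DESeq2 adjusted p = 0.0198), with Het replicate 1 inside the KO range and a trend of 0.28 when counted together with the overlapping Lrrd1.

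Other genes in full upward order were Zfp961 and Zfp738, which encode zinc finger proteins, Mcm4, a subunit of the replicative helicase, Exoc1 of the exocyst, Eny2, a subunit of the SAGA and TREX-2 complexes, the nuclear pore protein gene Ranbp2, the deadenylase gene Cnot6l and Tshr, the thyrotropin receptor. Their trends ran from 0.23 in Ranbp2 to 0.84 in Zfp961. Aftph, aftiphilin, had 83.0, 252 and 98.5 normalized counts in WT, 269, 256 and 275 in Het and 321, 357 and 310.1 in KO, and its order rested on a narrow gap between WT replicate 2 and Het replicate 2.

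Unnamed transcripts made up much of the remaining ordered set, 17 lncRNAs and 6 loci of the annotation class TEC, which still await experimental evidence. AC162467.3 had 3.71, 3.86 and 7.72 normalized counts in WT, 18.0, 9.31 and 12.7 in Het and 28.3, 32.9 and 24.1 in KO, a trend of 1.16 (SE 0.19, unadjusted p = 0.000159, DESeq2 adjusted p = 0.00802). It lies within Grip1, and the sum of both had a trend of −0.037. 4933428P19Rik, with a trend of −0.70, overlaps Kif1bp and the sum of both had a trend of 0.061, so neither sum kept the direction of the smaller locus.

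The departure of Het passed the limma test at an adjusted p under 0.05 in 3 genes (0.0202%), which were Gm17435, Igf2bp1 and Qrich1. At an unadjusted p under 0.05 there were 375 (2.52%), with Het above the midpoint in 145 (0.975%) and below it in 230 (1.55%). The count at an adjusted p under 0.05, 3 with all samples, was 0 without Het replicate 1, 33 without Het replicate 2 and 9 without WT replicate 1. Igf2bp1 (ENSMUSG00000013415, chromosome 11 from 95957163 to 96005940), an mRNA-binding protein, had 70.6, 67.5 and 52.1 normalized counts in WT, 2.83, 2.79 and 5.29 in Het and 65.3, 33.9 and 59.9 in KO. Het was far below both homozygotes, which overlapped, with a departure of −3.68 (SE 0.31, adjusted p = 0.012) and a trend of −0.15 (SE 0.72).

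Gm17435, a lncRNA that spans 72492934 to 72505499 on chromosome 8, was measured at 262, 72.4 and 187 normalized counts in WT, 0.945, 1.86 and 0 in Het and 215, 422 and 366 in KO. Its departure was −6.97 (SE 0.49, adjusted p = 0.00603). Gm17435 overlaps Med26, a Mediator subunit gene, on the other strand, and the summed counts had a trend of 0.12. The departure of the sum is not given here, so this value does not bear on the called departure. Qrich1 (ENSMUSG00000006673, chromosome 9 from 108516806 to 108560163), a transcriptional regulator, had 631, 655 and 507 normalized counts in WT, 57.6, 54.9 and 69.8 in Het and 85.0, 68.7 and 90.3 in KO. Loss of 1 allele went with a level slightly below that of KO, a departure of −1.84 (SE 0.18, adjusted p = 0.0227) beside a trend of −1.43 (SE 0.36).

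**Figure D2:**
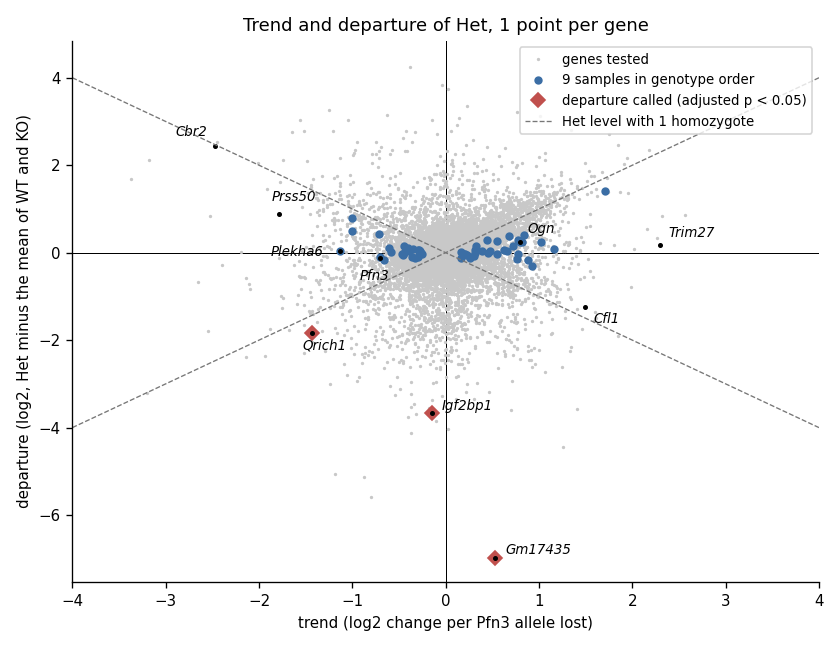
Trend per Pfn3 allele lost (horizontal axis, log2) against the departure of Het from the mean of WT and KO (vertical axis, log2) for the 14865 genes tested. Blue points are the 57 genes in full genotype order, which lie between the dashed lines by construction, red diamonds are the 3 genes with a called departure, and on the dashed lines Het equals 1 homozygote, as nearly in Cbr2 and Cfl1.

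How Het stood between the homozygotes was then read in genes chosen from WT and KO alone. With the 6 homozygous samples, 1148 of 14223 genes (8.07%) had an unadjusted p under 0.05, and 448 of the 1148 differed by at least 1 on the log2 scale, 243 lower and 205 higher in KO. The position of a Het sample was set to 0 at the WT mean and 1 at the KO mean. The median position of the Het mean was 0.61, and it would be 0.5 both for a graded response and for differences between homozygotes that were sampling spread alone, so this median does not separate the 2 cases.

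The 3 Het samples differed among themselves. The median position was 0.90 in Het replicate 1, 0.28 in Het replicate 2 and 0.71 in Het replicate 3. Among the genes lower in KO these medians were 0.998, 0.13 and 0.73, and among the genes higher in KO 0.79, 0.52 and 0.67. In 139 genes (31%) replicates 1 and 3 were nearer KO and replicate 2 nearer WT, and 111 of these were lower in KO. All 3 Het samples were nearer KO in 91 genes (20.3%) and nearer WT in 56 (12.5%).

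**Figure D3:**
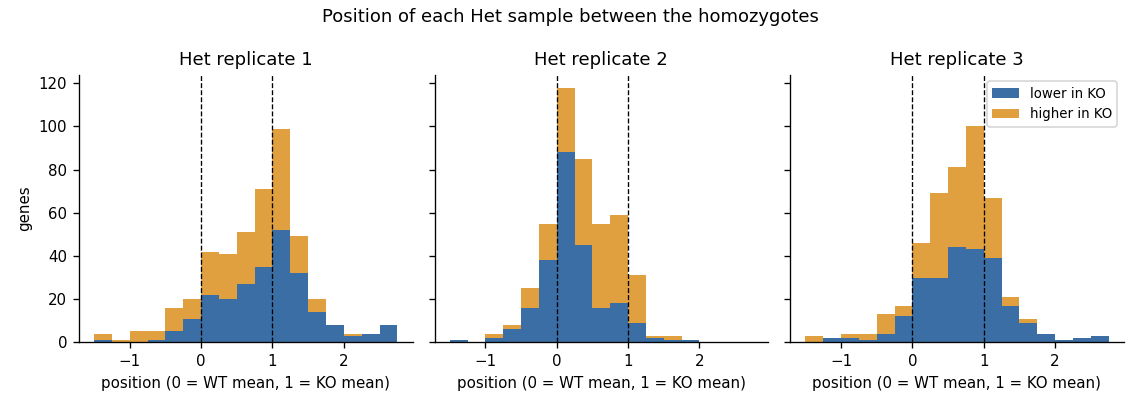
Number of genes (vertical axis) by position of each Het sample between the WT mean (0) and the KO mean (1), for 448 genes chosen from the homozygotes, in bins of 0.25, with values beyond the axis in the end bins. Blue marks genes lower and orange genes higher in KO, and the median positions are 0.90, 0.28 and 0.71 in replicates 1, 2 and 3.

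All 3 Het samples lay between 0.25 and 0.75 in 19 of the 448 genes (4.24%), 5 of them protein coding. These 5 were Plekha6, Knop1, Klc3, a kinesin light chain of sperm tails, Ttc21a, an intraflagellar transport protein, and Ric8b, a chaperone of G protein subunits. Klc3 had 46.3, 39.1 and 37.0 normalized counts in Het and 46.4, 7.74 and 45.6 in KO. Only KO replicate 2 lay below all its Het samples, so its middle position rests on that sample. Ttc21a had 289.7, 131 and 188 normalized counts in WT, 111, 136 and 125 in Het and 92.8, 87.1 and 92.1 in KO. Its Het replicate 2 lay within the WT range, and KO was below the other samples.

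Het stood near WT, with all 3 samples under 0.25, in 22 genes (4.91%), 16 of them lower in KO. Ctsh, the lysosomal protease cathepsin H, had 99.0, 107 and 59.9 normalized counts in WT, 86.0, 98.7 and 58.2 in Het and 9.45, 11.6 and 9.83 in KO. WT and Het overlapped, and KO was lower than both, with a trend of −1.47 (SE 0.29) and a departure of 1.36 (SE 0.27, unadjusted p = 0.000835). Cbr2, a carbonyl reductase, had 49.5, 27.0 and 19.3 normalized counts in WT and 28.3, 30.7 and 27.5 in Het, and 0 in each KO sample. Camk1g, a calmodulin-dependent kinase, had 22.3, 11.6 and 13.5 in WT, 18.9, 12.1 and 16.9 in Het and likewise 0 in each KO sample.

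Other genes of this kind were Maf1, a repressor of RNA polymerase III, the histone acetyltransferase gene Kat6b and Runx2, a transcription factor of bone. In Maf1 WT replicate 1 was near KO, at 12.4 normalized counts against 228 and 190 in the other WT samples and 6.77 to 8.04 in KO. Kat6b had 64.4, 45.3 and 61.8 normalized counts in WT, 48.2, 56.8 and 80.4 in Het and 12.9, 6.77 and 14.3 in KO. Cfl1, the actin-severing protein cofilin-1, was close to this pattern in the upward direction, with 19.8, 13.5 and 12.6 normalized counts in WT, 9.45, 27.9 and 22.2 in Het and 137, 90.0 and 160.0 in KO. Its trend was 1.49 (SE 0.31, unadjusted p = 0.000838, DESeq2 adjusted p = 0.00251), and its Het samples stood at −0.21, 0.29 and 0.18.

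Het stood near KO, with all 3 samples over 0.75, in 45 genes (10%), 32 of them higher in KO. Beside Qrich1 this set held Vps11, a core subunit of the complexes that tether lysosomes and late endosomes, and Cep350, a centrosomal protein. In Vps11 WT replicate 1 was near KO, at 11.1 normalized counts against 95.5 and 75.3 in the other WT samples and 2.58 to 6.77 in KO. The WT samples also lay apart in Commd5 (6.19, 7.72 and 93.7) and Mtf1 (37.1, 89.7 and 768), both higher in KO. In both, WT replicate 3 was near the KO samples (98.7 to 118 and 829 to 1241). A WT sample also reached or neared the KO level in Snhg6 (0, 0 and 19.3 in WT, 17.0 to 34.4 in KO) and Sh3bp5l (11.1, 60.8 and 7.72 in WT, 66.1 to 76.4 in KO). The position of such genes rests on the mean of uneven WT samples. In others, such as Trmt10c (4.95, 9.65 and 5.79 in WT, 15.5 to 17.2 in KO), all WT samples were low. Cep350 had 1161, 671 and 830.4 normalized counts in WT, 318, 285 and 283 in Het and 301, 332 and 271 in KO. Het and KO overlapped, and WT was more than 2-fold above both. Wt1, a transcription factor of Sertoli cells, had 9.90, 17.4 and 29.0 normalized counts in WT, 168, 179.7 and 116 in Het and 155, 199 and 32.2 in KO. Its KO replicate 3 was near WT replicate 3 and below all Het samples.

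The largest class was neither graded nor uniform. In 197 of the 448 genes (44%) at least 1 Het sample was under 0.25 and at least 1 over 0.75. Among 13 genes that the study had followed by qRT-PCR, which were picked from these KO and WT samples, 12 were in the set of 448 and 10 of the 12 were split in this way. The trend of such a gene averages Het samples that lie at opposite ends. Among 38674 rows deposited, 23282 carry names given by the transcript assembly merged over samples, among them the rows of these 10 genes, and whether the reads of a gene went to the same row in every sample was not tested, so a level near 0 means few reads in that row.

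Srsf9, a splicing factor, had 262, 318 and 285 normalized counts in WT, 425, 3.72 and 358 in Het and 2.58, 1.93 and 0.894 in KO. Het replicate 2 was at the KO level and the other Het samples were above WT, and the fitted trend was −3.37 (SE 0.78). Trim27, a ubiquitin ligase, had 47.0, 25.1 and 30.9 in WT, 64.2, 1014 and 102 in Het and 825, 764 and 879 in KO, with Het replicate 2 above the KO samples and a trend of 2.29 (SE 0.42). In both genes the same Het sample stood with KO. DESeq2 gave Srsf9 an adjusted p of 0.00802 and gave Trim27 no adjusted p.

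In Copa, Slc25a36, Atg2a and Exosc1 the same sample stood with WT instead. Copa, a subunit of the COPI vesicle coat, had 214, 365 and 448 normalized counts in WT, 20.8, 401 and 27.5 in Het and 47.2, 29.99 and 36.6 in KO. Slc25a36, a mitochondrial pyrimidine nucleotide carrier, had 54.5, 56.0 and 61.8 in WT, 12.3, 58.7 and 5.29 in Het and 12.02, 5.80 and 10.7 in KO. Het replicates 1 and 3 matched KO in both. Atg2a, a lipid transfer protein of the growing autophagosome, had 11.1, 133 and 259.7 in WT, 3.78, 156 and 9.52 in Het and 6.87, 4.84 and 4.47 in KO, so that WT replicate 1 was also near the KO level, and its trend was −1.79 (SE 0.68, DESeq2 adjusted p = 0.067). Exosc1, an RNA exosome subunit, had 161, 156 and 148 in WT, 5.67, 134 and 77.3 in Het and 17.2, 15.5 and 13.4 in KO.

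Dpm2, a subunit of dolichol phosphate mannose synthase, was split with Het replicate 1 near WT, at 234, 158 and 160.3 normalized counts in WT, 125, 10.2 and 8.47 in Het and 18.9, 6.77 and 5.36 in KO. Mul1, a mitochondrial ubiquitin ligase, had 6.19, 6.75 and 6.76 in WT, 163, 5.59 and 29.6 in Het and 29.2, 213 and 289.6 in KO. B3gnt9, a glycosyltransferase, had 1.24, 0.965 and 0 in WT, 0.945, 24.2 and 23.3 in Het and 25.8, 38.7 and 31.3 in KO, a trend of 2.15 (SE 0.47). Counted together with the overlapping D230025D16Rik, its trend was 0.0091. Hhatl was at 0 in each WT sample and in Het replicate 1, at 26.1 and 44.4 in the other Het samples and at 32.6, 33.9 and 35.7 in KO. Sap30 had 0, 6.75 and 13.5 in WT, 0, 18.6 and 20.1 in Het and 26.6, 11.6 and 8.04 in KO, with a trend of 0.80 (SE 0.66, unadjusted p = 0.252).

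Gene lists were described by the median trend of their tested members beside that of all genes tested, which was 0.011 with quartiles at −0.17 and 0.21. Of all genes 48.4% were lower with each allele lost. The lists that stood lowest were those of spermatids: elongating spermatid chromatin (median −0.27), the fibrous sheath and outer dense fibres of the tail (−0.27) and regulators of round spermatids (−0.25). The highest median of a list with more than 1 tested gene was that of meiotic synapsis and recombination (0.19). With values scaled by the reads counted per library, which moved all genes upwards, 12 of the 29 list medians changed sign, but the spermatid medians stayed below 0, at −0.17, −0.17 and −0.15.

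**Figure D4:**
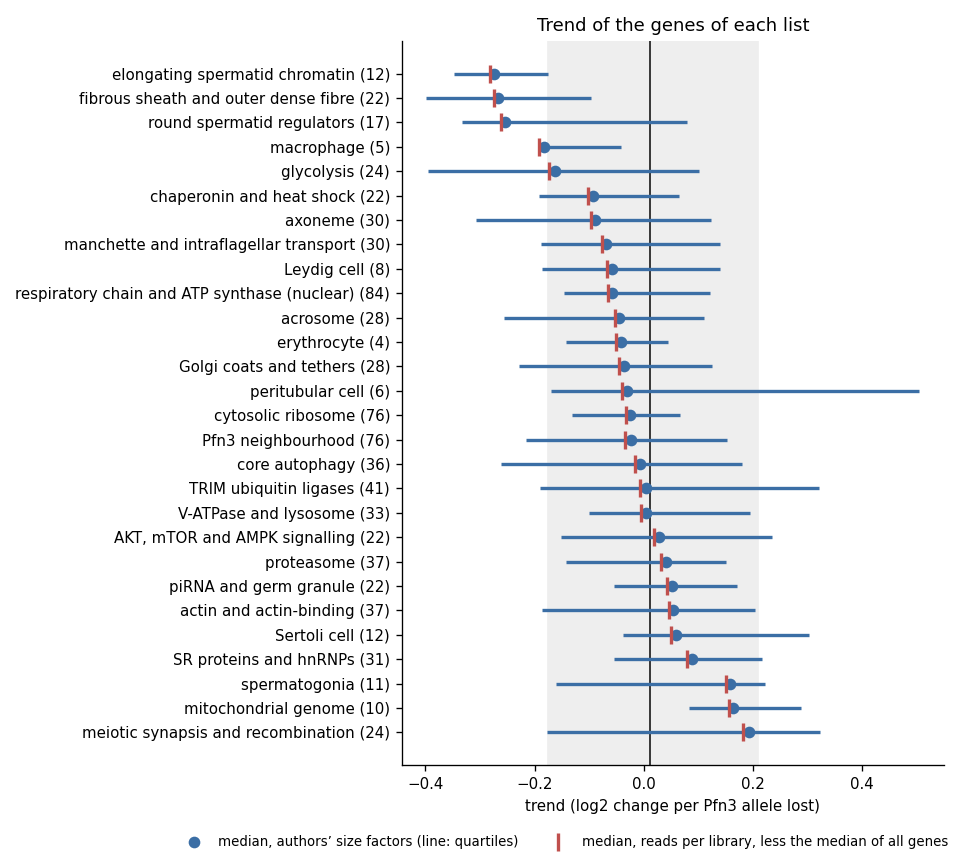
Median trend per Pfn3 allele lost (horizontal axis, log2; blue points, lines for the quartiles) in each gene list with its number of tested genes, for 28 lists, where the vertical line and grey band are the median (0.011) and quartiles (−0.17 to 0.21) of all genes, and red ticks are medians with values scaled by reads per library, less the median of all genes. The 3 spermatid lists lie lowest, at −0.27, −0.27 and −0.25.

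Elongating spermatid chromatin covers the transition proteins, the protamines and testis histones, of which 12 of 14 listed genes were tested. Of these 10 were lower with each allele lost, 4 at an unadjusted p under 0.05 and 0 higher at that threshold (5.83% and 3.96% of all genes). Prm2, protamine 2, had 54683, 41373 and 39826 normalized counts in WT, 21430, 38569 and 26112 in Het and 25746, 16738 and 25543 in KO. WT was above every other sample, Het overlapped KO, and the trend was −0.51 (SE 0.13, unadjusted p = 0.00292). Tnp2, transition protein 2, had 32383, 26072 and 27139 in WT, 15659, 23484 and 21285 in Het and 17677, 12426 and 19613 in KO, a trend of −0.40 (SE 0.10, unadjusted p = 0.00333). The DESeq2 adjusted p-values were 0.0967 for Prm2 and 0.123 for Tnp2.

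Prm2 and Tnp2 lie close together on the minus strand of chromosome 16, and the 250 bases before their starts are shown. In both genes the WT samples lay above all others, and Het overlapped KO. The windows are chr16:10792106-10792355 for Prm2 and chr16:10788656-10788905 for Tnp2 (RefSeq, GRCm38.p6, printed 5′ to 3′ on the minus strand), with the letters TATATA in capitals.
Prm2: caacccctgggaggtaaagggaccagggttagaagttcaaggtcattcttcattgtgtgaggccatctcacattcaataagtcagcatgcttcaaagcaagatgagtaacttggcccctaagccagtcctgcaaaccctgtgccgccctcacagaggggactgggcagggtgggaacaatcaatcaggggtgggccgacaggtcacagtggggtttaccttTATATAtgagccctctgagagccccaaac
Tnp2: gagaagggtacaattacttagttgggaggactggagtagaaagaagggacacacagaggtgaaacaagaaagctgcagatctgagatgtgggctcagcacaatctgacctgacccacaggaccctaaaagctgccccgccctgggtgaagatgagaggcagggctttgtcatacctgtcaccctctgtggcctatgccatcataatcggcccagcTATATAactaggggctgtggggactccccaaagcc
TATATA reads alike on both strands, and it was chosen after the sequences were read. It occurs 1 time in each window, with its first base 29 bases before the start of Prm2 and 35 before that of Tnp2, and in 5.25% of 32851 promoter windows of the same length. TGACG, searched on both strands, occurs in 17.8% of the windows and in neither of these.

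Prm1 and Tnp1 encode the other protamine and transition protein. Prm1 had 84544, 112270 and 104470 normalized counts in WT, 82705, 97133 and 103420 in Het and 87269, 60182 and 93468 in KO, a trend of −0.17 (SE 0.09, unadjusted p = 0.0918). Tnp1 had 62238, 69647 and 61857 in WT, 59268, 55707 and 62800 in Het and 61377, 34043 and 61048 in KO, a trend of −0.18 (SE 0.10, unadjusted p = 0.113). In both genes KO replicate 2 was the lowest of the 9 samples. In Prm1 the other KO samples overlapped WT, and in Tnp1 they were just below the lowest WT sample. Chd5, a chromatin remodeller of spermatids, had 721, 622 and 809 in WT, 124, 642 and 177 in Het and 361, 99.6 and 169.8 in KO, with Het replicate 2 at the WT level as in Copa. H1fnt, a spermatid linker histone, had a trend of −0.33 (SE 0.12, unadjusted p = 0.0181).

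Of 22 genes of the fibrous sheath and outer dense fibres, 19 were lower, 6 at an unadjusted p under 0.05 and 0 higher at that threshold (5.83% and 3.96% of all genes). These 6 were Cabyr, Odf1, Odf4, Gstm5, Pgk2 and Gapdhs, of which the last 2 are sperm glycolytic enzymes and stand in the glycolysis list as well. Odf1, the outer dense fibre protein 1, had 8068, 4700.0 and 5938 normalized counts in WT, 4319, 5954 and 5444 in Het and 2882.5, 3118 and 4070.0 in KO. KO lay below both other genotypes, which overlapped, and the trend was −0.44 (SE 0.12, unadjusted p = 0.00435, DESeq2 adjusted p = 0.109). KO lay wholly below WT in 8 of the 22 genes and wholly above it in 0, where the shares among all genes were 10.2% and 9.46% (19.6% together).

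Among 17 regulators of round spermatids, 11 were lower, 3 at an unadjusted p under 0.05, and 0 were higher at that threshold (5.83% and 3.96% of all genes). The 3 were the kinases of the testis-specific serine kinase family Tssk1, Tssk2 and Tssk3. The 6 higher genes included Crem (trend 0.053), Tcfl5 (0.10) and Tex36 (0.20). With values scaled by reads per library 9 of the 17 were lower. Tssk1 had 1805, 1607 and 1491 normalized counts in WT, 848, 1514 and 1024 in Het and 1052, 558 and 914 in KO. WT and KO did not overlap, Het replicate 1 was below KO replicate 1, and the trend was −0.50 (SE 0.14, unadjusted p = 0.00486, DESeq2 adjusted p = 0.134). The trends of Tssk2 and Tssk3 were −0.43 (SE 0.13) and −0.36 (SE 0.12).

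Glycolysis had 15 of 24 tested genes lower, 7 at an unadjusted p under 0.05 (Gpi1, Aldoa, Pgam2, Eno1, Pgk2, Aldoart2 and Gapdhs) and 0 higher at that threshold (5.83% and 3.96% of all genes), with a median of −0.16. Pgam2, a phosphoglycerate mutase, had 5710.1, 4013 and 3449.9 normalized counts in WT, 1824, 3343 and 2289 in Het and 2738, 1747 and 2460.4 in KO, a trend of −0.46 (SE 0.15, unadjusted p = 0.0148). Ldha, a lactate dehydrogenase subunit, had 31.0, 2333 and 1948 in WT, 14.2, 1992 and 15.9 in Het and 38.7, 19.3 and 24.1 in KO. WT replicate 1 was at the KO level, as in Atg2a.

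Within these lists the samples of a genotype differed. The median member of elongating spermatid chromatin, relative to its WT mean, stood at −0.70, −0.21 and −0.36 on the log2 scale in Het replicates 1, 2 and 3 and at −0.28, −1.14 and −0.34 in the KO replicates. For the fibrous sheath list these values were −0.47, −0.05 and −0.19 in Het and −0.36, −0.75 and −0.28 in KO. Het replicate 1 was thus below KO replicates 1 and 3 in both lists, and KO replicate 2 was the lowest sample and also the one with the highest summed Sertoli cell markers (7647 against 4264 to 5901 normalized counts in the other 8). Without KO replicate 2 the median trend of the chromatin list was −0.15 and that of the fibrous sheath list −0.20, and without KO replicate 1 that of the round spermatid list was −0.15.

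**Figure D5:**
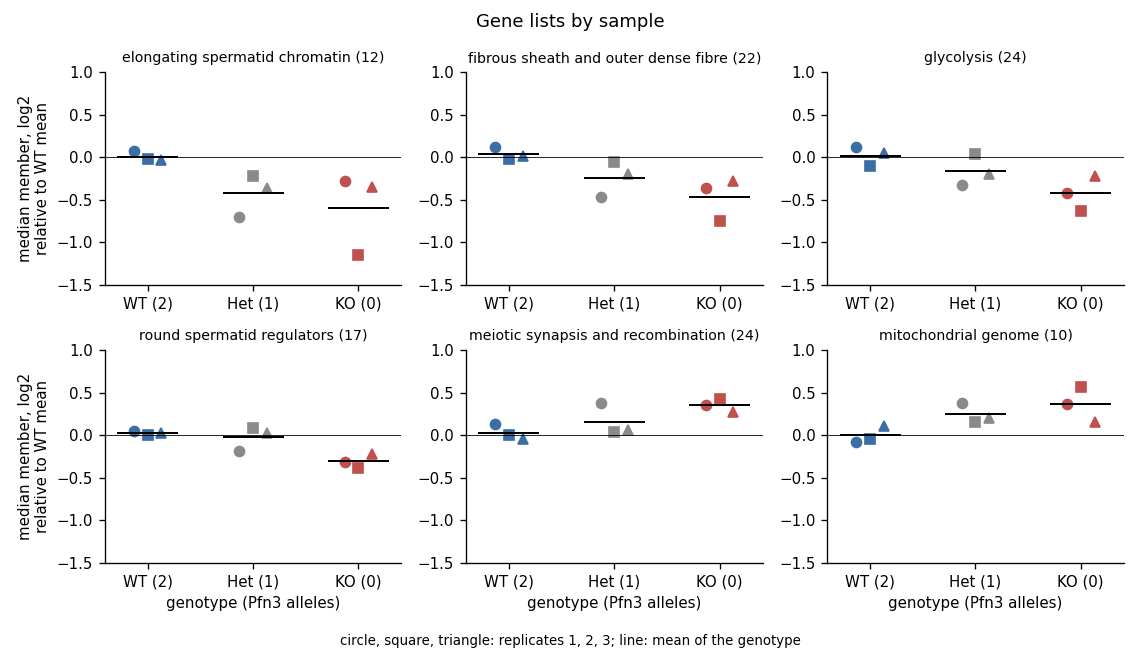
Median member of 6 gene lists relative to its WT mean (vertical axis, log2) in each sample, by genotype with the number of Pfn3 alleles in brackets, with circles, squares and triangles for replicates 1, 2 and 3 and lines for genotype means. In elongating spermatid chromatin Het lies at −0.70, −0.21 and −0.36 and KO at −0.28, −1.14 and −0.34, so that the genotypes overlap, while the meiotic list lies higher in KO (0.35, 0.43 and 0.28) than in WT.

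The other spermatid structures stood nearer to all genes. The axoneme list had 20 of 30 genes lower, 3 at an unadjusted p under 0.05 (Tekt2, Dnali1 and Rsph1; 5.83% of all genes), with a median of −0.090. The manchette and intraflagellar transport list had 19 of 30 lower, 2 at that threshold, and a median of −0.069. Of 28 acrosome genes 16 were lower and 2 passed that threshold, Sun5 and Spaca7, with a median of −0.045 that became 0.024 without KO replicate 2. At 2 of 28 the acrosome share was near that of all genes. Golgi coats and tethers had 16 of 28 lower, 2 at that threshold (Copa and the stacking protein gene Gorasp2), and a median of −0.037. With values scaled by reads per library the medians of these 4 lists were 0.01, 0.03, 0.06 and 0.06, so that their direction depended on the scaling.

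Core autophagy, the machinery that forms autophagosomes, had 19 of 36 genes lower and a median of −0.0078, yet 7 of the 36 had an unadjusted p under 0.05 and all 7 were lower (5.83% of all genes were lower and 3.96% higher at that threshold). They were the cargo receptors Optn and Nbr1, the ubiquitin-like activating enzyme gene Atg7, Atg2a, Map1lc3a, Gabarapl1 and Uvrag. With 1 sample left out at a time, Optn and Nbr1 kept an unadjusted p under 0.05 in all 9 fits and Atg7 in 8. Atg2a kept it in 5, Map1lc3a in 4, Gabarapl1 in 2 and Uvrag in 1. With values scaled by reads per library the median of the list was 0.093, against 0.11 for all genes, and 12 of the 36 were lower. Optn, optineurin, had 240.2, 216 and 196 normalized counts in WT, 175, 230.0 and 148 in Het and 128, 139 and 143 in KO, a trend of −0.33 (SE 0.098, unadjusted p = 0.00784, DESeq2 adjusted p = 0.154). Atg7 had 244, 178 and 185 in WT, 77.5, 174 and 119 in Het and 99.6, 104 and 117 in KO, a trend of −0.45 (SE 0.15, unadjusted p = 0.0158). In Atg7 all KO samples were below WT, and Het replicate 1 was the lowest sample.

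In the list of AKT, mTOR and AMPK signalling, 9 of 22 genes were lower, and at an unadjusted p under 0.05 there were 3 higher and 2 lower genes (3.96% and 5.83% of all genes). Rictor, a subunit of mTORC2, had 43.3, 36.7 and 40.6 normalized counts in WT, 57.6, 47.5 and 58.2 in Het and 64.4, 77.4 and 58.1 in KO. Het was above WT in each sample, with a trend of 0.35 (SE 0.099, unadjusted p = 0.00578). Rps6kb1, the S6 kinase downstream of mTORC1, had 81.7, 70.4 and 61.8 in WT, 124, 76.4 and 82.5 in Het and 116, 131 and 115 in KO, a trend of 0.38 (SE 0.11, unadjusted p = 0.00741). Pdpk1, a kinase that activates AKT, had a trend of −0.52 (SE 0.17, unadjusted p = 0.0143).

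Actin and actin-binding genes had a median of 0.054, with 17 of 37 lower, 5 of them at an unadjusted p under 0.05 and 2 higher at that threshold (5.83% and 3.96% of all genes), the latter near the share of all genes. The 2 higher genes were Cfl1 and Actr3, a subunit of the Arp2/3 complex, and the lower ones were Actl7a, Capzb, Actrt3, Capza3 and Actl9, most of them germ cell forms of actin-related and capping proteins. Actl7a had 1295, 840.2 and 799 normalized counts in WT, 674, 828 and 784 in Het and 636, 457 and 624 in KO, a trend of −0.38 (SE 0.11, unadjusted p = 0.00711, DESeq2 adjusted p = 0.148). Actrt3 had 513, 415 and 418 in WT, 321, 325 and 395 in Het and 339, 264 and 357 in KO, a trend of −0.25 (SE 0.092, unadjusted p = 0.0251). In Actrt3 WT lay above all other samples, and in Actl7a WT and Het overlapped. The list's median was −0.091 without WT replicate 1.

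Meiotic genes stood in the other direction. Of 24 genes of synapsis and recombination 8 were lower, with 2 higher and 2 lower at an unadjusted p under 0.05 (3.96% and 5.83% of all genes). Sycp3, of the lateral element of the synaptonemal complex, had 531, 455 and 674 normalized counts in WT, 1364, 569 and 759 in Het and 976, 871 and 845 in KO, a trend of 0.36 (SE 0.15, unadjusted p = 0.046). Syce1, of its central element, had 2502, 2345 and 2093 in WT, 1854, 2074 and 1905 in Het and 1920.5, 1666 and 1867 in KO, a trend of −0.17 (SE 0.064, unadjusted p = 0.023). The median member stood at 0.38, 0.04 and 0.06 in Het and 0.35, 0.43 and 0.28 in KO relative to WT, and the median trend was 0.12 without WT replicate 2.

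The mitochondrial genome list had 8 of 10 genes higher, 2 at an unadjusted p under 0.05 (mt-Atp8 and mt-Nd3, where 3.96% of all genes were higher), and a median of 0.16 that was 0.066 without WT replicate 1. mt-Nd3 had 577, 2311 and 1790.1 normalized counts in WT, 2365, 1889 and 2200.1 in Het and 3022, 2671 and 2822 in KO, a trend of 0.54 (SE 0.21, unadjusted p = 0.0305) for which the low WT replicate 1 weighed most. The nuclear genes of the respiratory chain had 51 of 84 lower, 3 at that threshold (5.83% of all genes), and a median of −0.058.

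The medians of lists of other processes ran from −0.094 to 0.088. Chaperonin and heat shock genes had a median of −0.094 with 15 of 22 lower, cytosolic ribosome −0.025 with 46 of 76 lower, TRIM ubiquitin ligases 0.0032 with 20 of 41 lower, V-ATPase and lysosome 0.0042 with 16 of 33 lower, proteasome 0.040 with 17 of 37 lower, piRNA and germ granule 0.051 with 8 of 22 lower and SR proteins and hnRNPs 0.088 with 10 of 31 lower. At an unadjusted p under 0.05, SR proteins and hnRNPs had 3 higher and 2 lower genes, and chaperonin and heat shock genes had 3 lower. The proteasome had 3 lower, cytosolic ribosome 2 lower, V-ATPase and lysosome 1 higher and piRNA and germ granule 0. Among all genes the shares were 3.96% higher and 5.83% lower. Of the 41 TRIM genes, Trim27 alone had an unadjusted p under 0.05. The 76 tested genes within 5000000 bases of Pfn3, which share its chromosome segment, had a median of −0.023 with 44 lower, 6 of these and 3 higher ones at that threshold (5.83% and 3.96% of all genes).

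Markers of other cells of the testis were read beside the spermatid lists. The summed level of 14 Sertoli cell markers was 5084 to 5590 normalized counts in WT, 4264 to 5901 in Het and 4425 to 7647 in KO, and 2 of them, Amh and Fshr, were at 0 in every sample. The value of 7647 was that of KO replicate 2, the sample with the lowest spermatid lists, and the other KO samples had 4737 and 4425. KO replicate 2 was also the highest KO sample in Leydig cell markers. The sum of 9 Leydig cell markers was 2992 to 4792 in WT, 2201 to 3353 in Het and 2722 to 3867 in KO, and that of 14 spermatogonia markers was 422 to 620 in WT, 446 to 531 in Het and 434 to 478 in KO. In each of these lists the KO range overlapped the WT range. The same held for the 6 peritubular markers (328 to 787 in WT, 524 to 1123 in Het and 440 to 621 in KO), 8 macrophage markers (249 to 331, 163 to 311 and 219 to 269) and 5 erythrocyte markers (927 to 1243, 945 to 1391 and 853 to 1200). Het replicate 1, the Het sample lowest in the chromatin and fibrous sheath lists, had the highest peritubular and the lowest macrophage sum of all samples, with the median tested member at 1.84 and −1.18 on the log2 scale relative to WT.

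Median trends of these marker lists were 0.058 for 12 tested Sertoli cell genes, −0.059 for 8 Leydig cell genes, 0.16 for 11 spermatogonia genes, −0.030 for 6 peritubular genes, −0.18 for 5 macrophage genes and −0.042 for 4 erythrocyte genes. Of the tested members Wt1 alone passed an unadjusted p of 0.05, and without WT replicate 1 and Het replicate 1 its unadjusted limma p was 0.0836. Of 8 epididymis markers 6 were at 0 in every sample (Lcn5, Lcn8, Lcn9, Lcn12, Adam7 and Rnase9) and the 1 tested, Rnase10, had a trend of 0.70 that was −0.13 without WT replicate 1. In RNA from whole testis fewer cells of a type and less RNA per cell cannot be told apart, and the part that cell composition has in the spermatid values was not tested.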

How the data were processed

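Testis RNA of 9 mice, 3 of each Pfn3 genotype, was sequenced as QuantSeq 3′ libraries. Per the submitters' processing notes, reads were trimmed with Trim Galore 0.4.5 and processed with HISAT2 2.1, StringTie 1.3.3 and DESeq2 on GRCm38. The deposited signal values are read counts per gene that the authors divided by DESeq2 size factors. Dividing each column by its smallest value above 0 gave whole reads for 100% of values (relative tolerance 1e-06), 3375546 to 4287335 per sample, which limits precision for low genes, and detection limits cover counting error only. All columns were mapped by name to labelled samples, 0 were left over.

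Genes with a value of at least 10 in 3 or more samples were kept. The trend on alleles lost and the departure of Het were fitted to log2(value + 1), which understates changes of low genes, with limma 3.58.1 (moderated, with intensity trend) in R 4.3.3, with Benjamini-Hochberg adjustment over all tested genes. Gene positions are those of GRCm38, and promoter sequences are from RefSeq. The limma, edgeR and DESeq2 fits were first tested on simulated counts with known slopes. These held no departure of Het, so recovery of a departure was not tested, and the other fits were not simulated.

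Genes were named by rule: Pfn3, the genes followed by qRT-PCR, the 10 lowest p-values and the 8 steepest fully ordered genes in each direction, the 5 lowest p-values for the departure and the 3 lowest in each list. Further genes, among them those of the Het classes, were chosen after their values were seen. The comparison, the gene lists and the members were chosen with earlier results of these data known.

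Alternatives were edgeR 4.0.16 and DESeq2 1.42.0 on the recovered reads, TMM factors, an F test over genotypes, pseudocounts of 0.5 and 5, no filter or a minimum of 50, rows of 1 symbol summed, a replicate block and leaving out each sample. Leaving out WT replicate 1 with Het replicate 1, scaling by reads counted per library and summing overlapping genes were added after seeing the data. Figures were drawn with Python 3.11.15 and matplotlib 3.10.9. Some items are not reported here.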

Additional observations from a re-analysis of the deposited data

How the results depend on the processing

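With an adjusted p under 0.05 the count of trend genes was 0 in limma and 57 in DESeq2, and 5 genes passed an F test over the genotypes. For the departure of Het the count was 3 in limma, 0 with a replicate block, 21 in DESeq2, 12 without WT replicate 1 and Het replicate 1, and 0 to 33 with 1 sample left out. The trend count at an unadjusted p under 0.05 ran from 869 (without KO replicate 2) to 1702 (without Het replicate 1) against 1455, and the count of fully ordered genes, 57, ran from 79 to 251 with 1 sample left out and was 424 with both samples out, where fewer samples have to stand in order. The Pfn3 trend ran from −0.89 to −0.45. Summed with their overlapping genes, AC162467.3 (−0.037) and 4933428P19Rik (0.061) changed sign. Beyond the 12 of 29 list medians that changed sign with reads per library, 5 did so without WT replicate 1 and Het replicate 1. With 1 sample left out 0 to 5 changed sign, the most without WT replicate 1, KO replicate 2 or KO replicate 3. A minimum value of 50 changed the sign of 4 of 28 medians, summing overlapping genes that of 2 and TMM factors that of 1. The cause was not tested. The deviations of same-numbered samples had correlations of −0.14 to 0.19, and those of differently numbered samples −0.24 to 0.19. With 3 samples a genotype this cannot show whether the numbers pair the samples. With the replicate block 1207 genes had an unadjusted p under 0.05. Of the genes named by rule 116 stayed on the same side of that threshold with the block, 4 lost it (Rsph1, Spag4, Tex12 and Ndufa11) and 2 gained it (Asz1 and Lin28a). With 3 samples a genotype, differences smaller than the spread within a genotype were not detectable at this depth.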
